A study of Mus musculus with 4 samples.

Results

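The 8 guanylate-binding protein genes described here, Gbp2, Gbp3, Gbp4, Gbp5, Gbp6, Gbp7, Gbp8 and Gbp9, were taken by name out of the 31053 genes counted in immune cells of mouse skin. Cells carrying the pan-leukocyte protein CD45 were sorted from the skin of 2 uninoculated C57BL/6 mice (control skin) and from 2 tumors (skin tumor), and each sample gave 1 droplet library of the 3′ ends of its RNA. The tumors had grown for 2 weeks after 200000 cells of line 2323 were placed under the flank skin of C57BL/6 mice. The 2323 line came from 1 graft of a mouse tumor of a genetic model of skin cancer with doxycycline-inducible Cre in keratin 14 cells. The inoculated mice were 8 to 10 weeks old and of both sexes, and the labels do not give the sex of a sample. All 4 samples passed through 2 h of collagenase digestion and the same CD45+/DAPI- sort. The control mice are described as uninoculated, so the injection, the injected cells and the growing tumor cannot be told apart. The labels name 2 skins and 2 tumors without saying whether they were handled on separate days, and p-values measure the spread between these libraries.

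Guanylate-binding proteins are large GTPases of the dynamin superfamily, made by most cells after exposure to interferons and above all to interferon gamma. They gather on the vacuoles of intracellular parasites and on bacteria in the cytosol, assist in breaking these membranes, and feed the inflammasomes that mature interleukin 1 beta and interleukin 18. In this they work with another interferon-induced family, the immunity-related GTPases, and they are placed on membranes with the help of lipid tails and of the ATG conjugation genes of autophagy. In tissues they are commonly used as a readout of interferon exposure, in myeloid cells and in lymphocytes.

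The 8 genes lie in 2 clusters of the GRCm38 build. On the plus strand of chromosome 3 stand Gbp5 (ENSMUSG00000105504, chr3:142493978-142522344), Gbp7 (ENSMUSG00000040253, chr3:142530342-142550149), Gbp3 (ENSMUSG00000028268, chr3:142560026-142573209) and Gbp2 (ENSMUSG00000028270, chr3:142620602-142638008). On the minus strand of chromosome 5 stand Gbp8 (ENSMUSG00000034438, chr5:105014150-105139540), Gbp9 (ENSMUSG00000029298, chr5:105077630-105139539), Gbp4 (ENSMUSG00000079363, chr5:105115767-105139586) and Gbp6 (ENSMUSG00000104713, chr5:105270702-105293698). The annotated spans of Gbp4, Gbp8 and Gbp9 overlap on the same strand, and so do those of Gbp6 and Gm43302. These 4 genes also share sequence near their 3′ ends, which is where the libraries were read. Of all 60-base words in the last 500 bases of the annotated transcripts, 74.6% of the words of Gbp6 also occurred in another gene, most often Gbp10. The share was 15.07% for Gbp4, 2.95% for Gbp8, 2.72% for Gbp9, 2.58% for Gbp3, 1.62% for Gbp5 and 0% for Gbp2 and Gbp7. The values of Gbp6, and to a lesser degree of Gbp4, Gbp8 and Gbp9, are therefore uncertain as to which gene of the cluster each molecule belongs to. Gbp3 shared nearly as large a part of its words as Gbp9, most often with Gbp7, though no annotated span overlaps its own.

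Promoters, here 250 bases before to 50 bases after the RefSeq start site of GRCm38.p6, were at hand for Gbp2, Gbp3, Gbp5 and Gbp7, which are 4 of the 8 genes. They are shown because interferon acts through short promoter motifs, and 2 were searched on both strands. The core of the interferon-stimulated response element, GAAANNGAAA, stood in 1131 of 32851 promoters of this length (3.443%) and in a promoter of each of the 4 genes. In all 4 the match was on the strand opposite to the gene, so it reads as a pair of TTTC blocks below, where capitals mark it and the windows run 5′ to 3′ on the plus strand.
Gbp2, chr3:142620589-142620628: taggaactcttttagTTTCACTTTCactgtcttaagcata
Gbp3, chr3:142559984-142560023: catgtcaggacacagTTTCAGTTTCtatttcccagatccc
Gbp5, chr3:142496754-142496793: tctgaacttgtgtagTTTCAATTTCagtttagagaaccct
Gbp7, chr3:142530268-142530307: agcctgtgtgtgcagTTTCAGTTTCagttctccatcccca
Counted from the start site, the matches began at -59 in Gbp2, -45 in Gbp3, -165 in Gbp5 and -53 in Gbp7. Gbp3 held another match that overlaps this one, at -39, and its other listed promoter held none. The gamma-activated site, TTCNNNGAA, was in 2726 of the promoters (8.298%). It stood at -245 and -52 in Gbp5 and at -106 and -87 in Gbp7, and no match lay in the windows of Gbp2 and Gbp3. The match nearest the start in Gbp5 and the farther one in Gbp7 are shown with the site in capitals.
Gbp5, chr3:142496867-142496905: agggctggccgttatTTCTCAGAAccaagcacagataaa
Gbp7, chr3:142530215-142530253: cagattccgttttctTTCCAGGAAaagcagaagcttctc
A match is a run of letters and not a measured binding site.

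The libraries held 2258 to 5176 cells and 34893543 to 73904272 unique molecular identifiers (UMIs, 1 per captured RNA molecule), and 12395 cells remained after filters on quality and doublets. Cells were sorted into 16 types by marker genes, without using any Gbp gene, and between 32.8% and 47.3% of the cells of a library met no gate. Of the 16 types, 10 had at least 10 cells in every library and were fitted, and the other 6 are given as levels. Between 1 and 7 cell barcodes were shared by each pair of libraries. Macrophages with high C1q made up 1.59% and 4.98% of the control cells and 34.56% and 28.51% of the tumor cells. Langerhans cells made up 11.65% and 9.45% of the control cells and 0.02% and 0.20% of the tumor cells. Ptprc, the gene of CD45, was between 3.40 and 29.3 UMIs per 10,000 in the 10 fitted types. Levels are UMIs of a gene per 10,000 UMIs of that cell type in that library. Fold changes come from an edgeR quasi-likelihood test on summed counts, adjusted over all genes tested in the type by the Benjamini-Hochberg method, and "called" means an adjusted p under 0.05.

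Guanylate-binding protein genes were called higher in skin tumors than in control skins in 5 of the 9 cell types with a tested gene: C1q-high macrophages, monocyte-like cells, both types of conventional dendritic cell and CD8 T cells. None was called in neutrophils, NK cells or regulatory and other CD4 T cells. Of 80 pairs of a gene and a fitted cell type, 56 had enough counts to be tested. Of these 56, 55 had a log2 fold change above 0 (Gbp4 in NK cells was the exception), 51 had both tumors above both controls and 18 were called higher. Over all genes tested in these 9 types, between 20.1% and 42.6% had both tumors above both controls, and between 0.0% and 5.06% were called higher. Several of the 18 were, in both controls, below the level that the filter on low counts asks for. They passed it through their tumor libraries, as given for each type, and so did pairs that were not called. These were Gbp9 in monocyte-like cells, Gbp8 in type 1 dendritic cells, Gbp7 in neutrophils and Gbp3 and Gbp9 in NK cells. Gbp3, Gbp5 and Gbp6 in CD4 T cells outside the regulatory lineage belong here too. Other pairs met the filter's level in only 1 control, so they did not pass without a tumor library. These were Gbp6 in macrophages, Gbp3 in monocyte-like cells, Gbp2 in neutrophils, Gbp8 in NK cells and Gbp6 and Gbp9 in regulatory T cells. The same held for Gbp2 and Gbp9 in the other CD4 T cells and for Gbp2, Gbp3 and Gbp9 in CD8 T cells. The counts of 55, 51 and 18 include such pairs, so their size is not read against the shares over all genes. No pair was called lower by edgeR, where 2.42% of all 66022 gene and type pairs were, mast cells included. None had both tumors below both controls, and the share of all genes that did was not computed. Pairs that passed the filter through their tumor libraries could hardly be lower, so neither count is support. Gbp5 was called in 5 of 7 types and Gbp7 in 4 of 9. Gbp2 was called in 3 of 8 types, Gbp8 in 2 of 8, and Gbp3, Gbp4, Gbp6 and Gbp9 in 1 type each. Outside macrophages, Gbp5 was below the filter's level in both controls in every type where it was called. So were Gbp2 and Gbp7 in type 1 dendritic cells, Gbp4 and Gbp8 in monocyte-like cells and Gbp6 in CD8 T cells. These counts are therefore no ranking of the genes. The count of 18 fell to 6 without control skin 1 and to 5 without control skin 2, and rose to 30 without skin tumor 2.

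**Figure D1:**
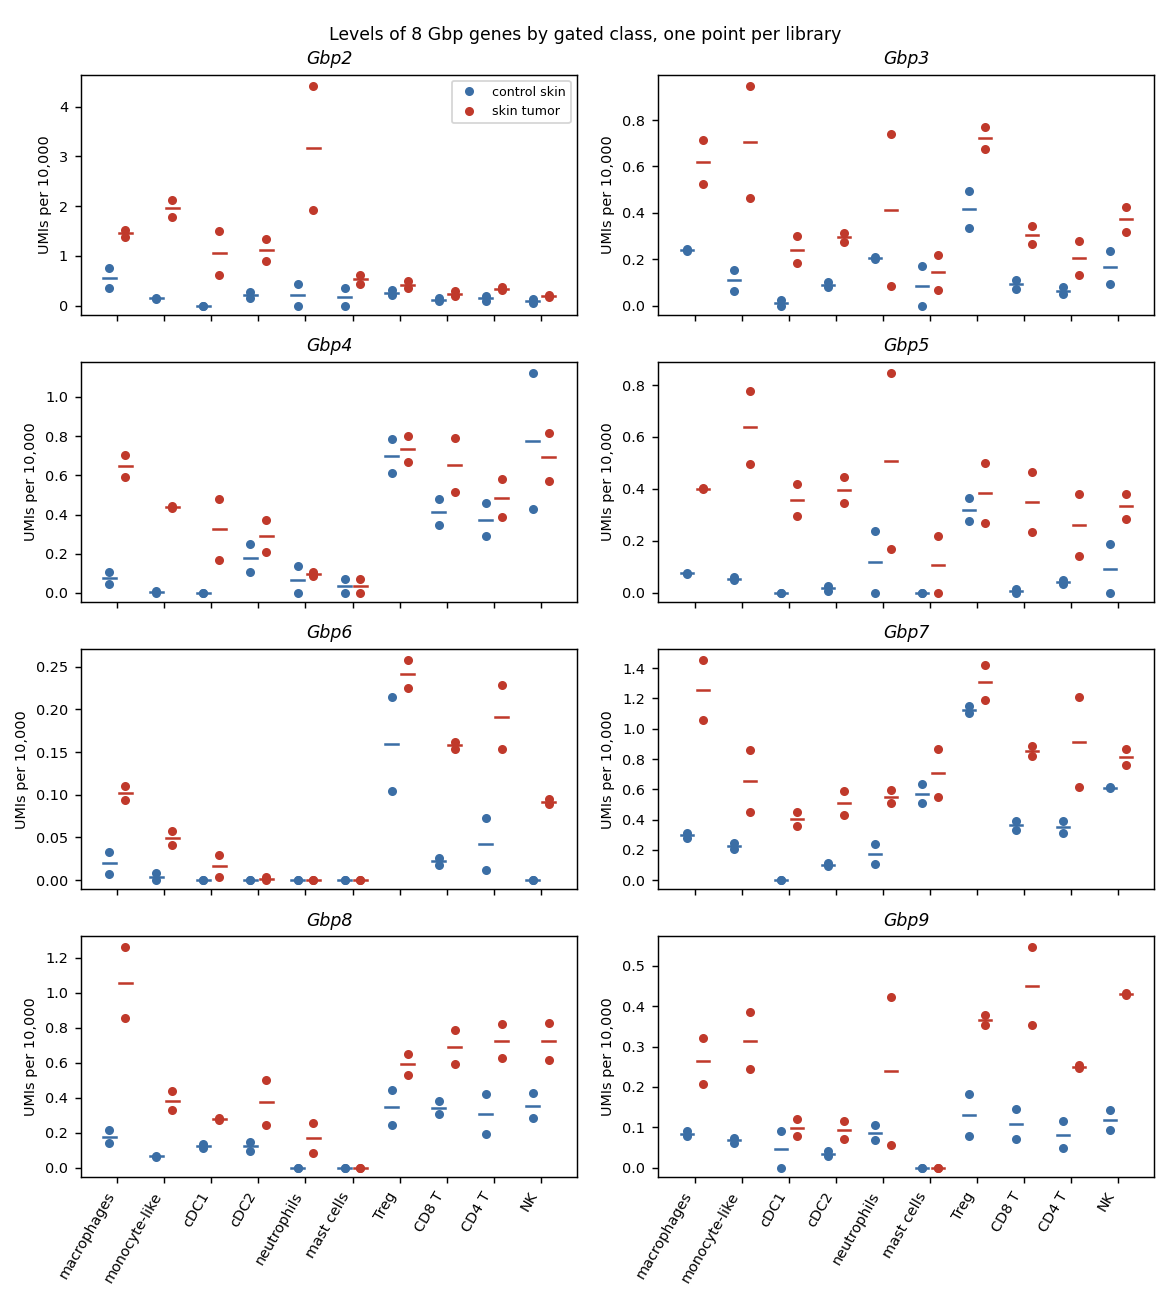
Level of each of the 8 genes, in UMIs per 10,000 UMIs of the cell type (vertical axis, linear, a separate range in each panel), in the 10 fitted cell types (horizontal axis). Each point is 1 library and each short line the mean of the 2 libraries of control skin or skin tumor. The summed level of the 8 genes in control skin was highest in regulatory T cells (3.45) and in skin tumor in C1q-high macrophages (5.79).

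In C1q-high macrophages, the tissue phagocytes that were the largest gated population of the tumors, all 8 genes had higher levels in both tumors than in both control skins. Gbp8, Gbp5 and Gbp7 were called, and Gbp4 lay just outside the threshold. The 8 genes together took 1.72 and 1.32 UMIs per 10,000 in the controls and 6.33 and 5.25 in the tumors, a 3.81-fold higher mean. Gbp8 was at 0.212 and 0.138 in control skins 1 and 2 and at 1.26 and 0.853 in skin tumors 1 and 2. Its log2 fold change was 2.45 (SE 0.30, adjusted p = 0.0439). Gbp5, known for promoting the NLRP3 inflammasome, was at 0.0783 and 0.0709 in the controls and 0.399 and 0.402 in the tumors. The libraries of each tissue lay close together, and the difference was 5.37-fold (log2 fold change 2.23, SE 0.28, adjusted p = 0.0455). Gbp7, which is known to bind parts of the phagocyte oxidase, was at 0.280 and 0.313 in the controls and 1.45 and 1.06 in the tumors, 4.23-fold higher (log2 fold change 1.84, SE 0.23, adjusted p = 0.0455). Gbp4 was at 0.0447 and 0.108 against 0.705 and 0.589, an 8.47-fold difference that missed the threshold (log2 fold change 2.68, SE 0.35, adjusted p = 0.0502). Gbp2, which helps to disrupt the vacuole of Toxoplasma, had the highest control level of the 8 genes here. It was at 0.749 and 0.362 in the controls and 1.37 and 1.53 in the tumors (log2 fold change 1.25, SE 0.33, adjusted p = 0.195). Gbp3, Gbp6 and Gbp9 had log2 fold changes of 1.15, 2.53 and 1.46 with adjusted p of 0.13, 0.182 and 0.153.

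The 3 calls stood against a background in which 0.145% of the 11699 genes tested in macrophages were called higher, and 39.4% had both tumors above both controls. All 8 genes had an unadjusted p under 0.05. Gbp6, which was not called, met the low-count filter's level in control skin 1 only, so it did not pass without a tumor library. The number called was 0 without control skin 1, 0 without control skin 2, 5 without skin tumor 1 and 8 without skin tumor 2, and DESeq2 called 6. Stricter gates left 1 call, and thinning each cell to 1000 UMIs left 0. Control skin 1 held 46 macrophages, against 149, 1574 and 557 in the other libraries. The summed C1q-high macrophage markers were 59.99 and 73.8 per 10,000 in the controls and 98.7 and 70.1 in the tumors, and the cycling genes Mki67 and Top2a summed to 0.101 and 0.634 against 1.42 and 0.749. The part of these marker levels in the result was not tested.

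Monocyte-like cells, gated by Ly6c2 or Plac8 with Lyz2 and Ccr2 or Csf1r, had their largest tested difference of a well-counted gene in Gbp2. Its level was 0.153 and 0.139 in the control skins and 2.12 and 1.79 in the tumors, 13.4-fold higher (log2 fold change 3.69, SE 0.29, adjusted p = 0.00296). Both tumors stood far above both controls, and the libraries of each tissue differed little. Gbp4 had 0 and 1 UMIs in the controls and 183 and 64 UMIs in the tumors. On 1 control UMI the ratio of pooled levels was 68.5 with a 95% exact interval from 12.2 to 2715 for counting error (adjusted p = 0.00839). Gbp5 was at 0.0614 and 0.0489 in the controls and 0.777 and 0.496 in the tumors, an 11.5-fold difference (log2 fold change 3.53, SE 0.45, adjusted p = 0.0185). Gbp8 was at 0.0614 and 0.0652 against 0.436 and 0.326 (log2 fold change 2.49, SE 0.42, adjusted p = 0.0469). Gbp7, Gbp3 and Gbp9 were higher in both tumors without a call, with adjusted p of 0.171, 0.0933 and 0.112. Gbp6 had too few counts to test.

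Of the 7 genes tested in monocyte-like cells 4 were called, where 0.552% of 7785 genes were called higher, and all 7 had both tumors above both controls, where 27.4% of genes did. Gbp4, with 1 control UMI, and also Gbp5, Gbp8 and Gbp9 were below the filter's level in both controls. They passed it through their tumor libraries, so their place in these counts is no support. Of the called genes this leaves Gbp2 alone. Gbp3, which was not called, met the level in control skin 2 only, so it did not pass without a tumor library. The count was 0 without control skin 1, 0 without control skin 2 and 7 without skin tumor 2. Control skin 1 held 21 such cells. The dissociation stress genes were 56.0 and 56.4 per 10,000 in the controls and 104 and 62.8 in the tumors, with Hspa1a and Hspa1b called higher. Their part in the result was not tested.

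**Figure D2:**
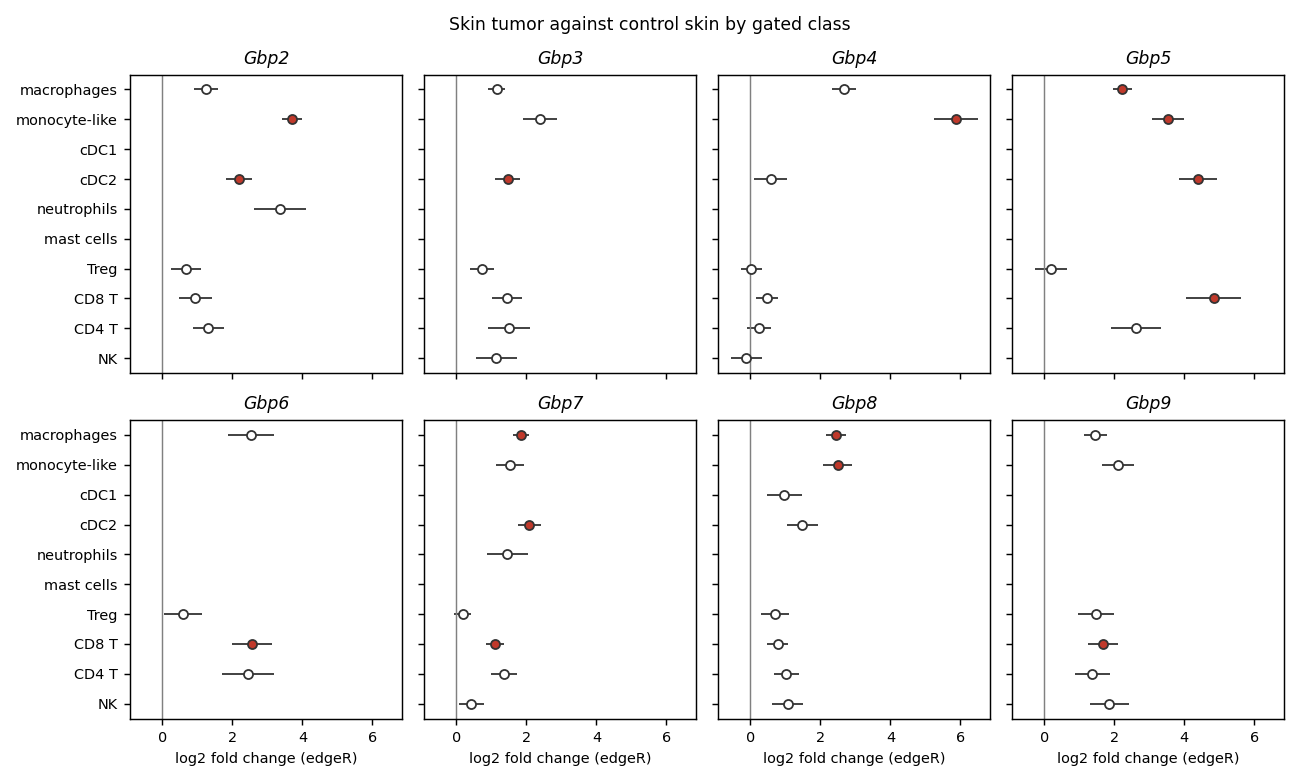
Log2 fold change of skin tumor over control skin from edgeR (horizontal axis) for each tested gene and cell type. Bars are standard errors derived from the F statistic of the test. Filled points have an adjusted p under 0.05, and the vertical line at 0 marks no difference. Gbp2, Gbp5 and Gbp7 in type 1 dendritic cells are left out because both controls had 0 UMIs, and Gbp4 in NK cells, at -0.12, is the 1 tested pair below 0.

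Type 1 conventional dendritic cells (cDC1), which cross-present antigen to CD8 T cells, had almost no Gbp RNA in control skin. Gbp2, Gbp4, Gbp5, Gbp6 and Gbp7 had 0 UMIs in the 13 and 20 control cells. In the 84 and 11 tumor cells Gbp2 was at 0.609 and 1.49, Gbp7 at 0.361 and 0.448, Gbp5 at 0.294 and 0.418 and Gbp4 at 0.17 and 0.477. Against a floor of 3 UMIs over both controls, Gbp2 was at least 17.1-fold higher, Gbp7 at least 8.84-fold and Gbp5 at least 7.37-fold, with adjusted p of 0.0277, 0.0295 and 0.0402. Gbp8 was measured in every library, at 0.111 and 0.135 in the controls and 0.282 and 0.269 in the tumors (log2 fold change 0.97, SE 0.51, adjusted p = 0.33). Gbp3, Gbp4, Gbp6 and Gbp9 were too low over the 4 libraries to enter the test. Over all 5260 genes tested 0.97% were called higher and 35.9% had both tumors above both controls. The 3 genes called had 0 control UMIs and passed the filter through their tumor libraries. Gbp8, which was not called, was also below the filter's level in both controls. The counts of these genes are therefore not read against this background. With stricter gates the summed level in the tumors was 1.614, against 2.77 as gated, and no member could be tested. Without control skin 1 or control skin 2 the count was 0, and without skin tumor 1 it was 1.

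Type 2 conventional dendritic cells (cDC2), which mainly present antigen to CD4 T cells, gave the calls that held best. Gbp2 was at 0.275 and 0.147 in the control skins and 0.888 and 1.34 in the tumors, 5.29-fold higher (log2 fold change 2.19, SE 0.38, adjusted p = 0.0202). Gbp5 went from 3 and 1 UMIs (0.0275 and 0.0067 per 10,000) to 134 and 30 UMIs (0.446 and 0.348), a log2 fold change of 4.39 (SE 0.55, adjusted p = 0.0096). Gbp7 was at 0.0917 and 0.114 against 0.589 and 0.429, 4.96-fold higher (log2 fold change 2.08, SE 0.33, adjusted p = 0.0158). These 3 genes were called under all 12 alternatives run for each, the highest adjusted p being 0.0313. Gbp3 was at 0.101 and 0.0801 against 0.276 and 0.313 (log2 fold change 1.46, SE 0.36, adjusted p = 0.0453), and this call held under 5 of 12 alternatives. For Gbp8 the groups did not overlap (adjusted p = 0.0759). Gbp4 did overlap, at 0.248 and 0.107 in the controls and 0.373 and 0.209 in the tumors (log2 fold change 0.58, SE 0.47, adjusted p = 0.461).

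In cDC2, 4 of 6 genes tested were called, with 4.79% of 8023 genes called higher, and 5 of 6 had both tumors above both controls, as did 42.6% of all genes. Gbp5 was below the filter's level in both controls and passed it through its tumor libraries, so its place in these counts is no support. The other genes called were Gbp2, Gbp3 and Gbp7. Macrophage markers in these cells moved the other way, at 9.81 and 9.76 per 10,000 in the controls and 2.79 and 3.18 in the tumors. The monocyte list fell likewise, from 47.6 and 50.7 to 18.9 and 21.2. The markers of cDC2 themselves stood at 27.7 and 27.3 in the controls and 15.4 and 15.8 in the tumors. The stress genes stood at 38.9 and 31.3 against 60.2 and 98.7, and the cycling genes at 0.358 and 0.548 against 2.13 and 0.881. The part of these shifts in the Gbp result was not tested.

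In CD8 T cells, the cytotoxic lymphocytes, 4 of 8 genes were called and all 8 had both tumors above both controls. Gbp5 and Gbp6 were below the filter's level in both controls and passed it through their tumor libraries, so their place in these counts is no support. The other genes called were Gbp7 and Gbp9. Gbp7 met the filter's level in both controls. Gbp9 met it in control skin 1 only, so it did not pass without a tumor library. Among the genes not called, Gbp3 met it in control skin 1 only and Gbp2 in control skin 2 only. Gbp5 had 2 and 0 UMIs in the control skins and 107 and 23 UMIs in the tumors (0.235 and 0.465 per 10,000). The ratio of pooled levels was 26.9 with a counting interval from 7.31 to 225 (adjusted p = 0.00561). Gbp6 was at 0.0262 and 0.0178 against 0.154 and 0.162, 7.18-fold higher (log2 fold change 2.55, SE 0.57, adjusted p = 0.0217). Gbp7 was at 0.334 and 0.392 against 0.818 and 0.889, a 2.35-fold difference with the libraries of each tissue close together (log2 fold change 1.10, SE 0.26, adjusted p = 0.027). Gbp9 was at 0.144 and 0.0713 against 0.354 and 0.546 (log2 fold change 1.68, SE 0.43, adjusted p = 0.0352). Gbp3 had an adjusted p of 0.0607, Gbp8 of 0.123, Gbp2 of 0.224 and Gbp4 of 0.371. Gbp4, at 0.347 and 0.481 in the controls and 0.515 and 0.788 in the tumors, was thus already among the more abundant of the 8 genes in control CD8 T cells.

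The background in CD8 T cells was 5.06% of 8022 genes called higher and 38.2% with both tumors above both controls. DESeq2 called 1 of the 8 genes, and the count was 2 without control skin 1 and 0 without control skin 2. Skin tumor 2 held 40 CD8 T cells. The regulatory T cell markers stood at 6.20 and 7.47 per 10,000 in the controls and 14.4 and 14.8 in the tumors, and the monocyte list at 2.69 and 3.01 against 7.64 and 10.2. The cycling genes stood at 3.26 and 3.26 against 8.38 and 4.14, and the stress genes at 30.4 and 25.1 against 41.6 and 36.9. The part of these levels in the result was not tested. RNA of macrophage genes was also read in these droplets, and its source was not tested. Lyz2 in CD8 T cells was at 0.38%, 0.52%, 0.70% and 1.70% of its macrophage level in control skins 1 and 2 and skin tumors 1 and 2, and Apoe at 0.41%, 0.46%, 0.68% and 2.34%. Mrc1 was at 0.57%, 0.57%, 0.51% and 7.69%, and Folr2 at 12.31%, 0%, 1.89% and 9.47%. Gbp2, which was not called, was at 11.35%, 39.39%, 14.25% and 18.52%. Gbp7 in the same cells was at 119% and 125% of its macrophage level in the controls and at 56.3% and 84.1% in the tumors.

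CD4 T cells outside the regulatory lineage had a median log2 fold change of 1.36 over the 8 genes, with no call. Of 8 genes tested, 7 had both tumors above both controls, where 32.8% of genes did, and 7 had an unadjusted p under 0.05. Gbp3, Gbp5 and Gbp6 were below the filter's level in both controls and passed it through their tumor libraries. Gbp2 met it in control skin 2 only and Gbp9 in control skin 1 only, so neither passed without a tumor library. The place of all these genes in the counts and in the median is no support. Neither edgeR nor DESeq2 called any of the 8 genes at an adjusted p under 0.05, where edgeR called 4.35% of 7911 genes higher. Gbp7 was at 0.309 and 0.389 in the controls and 1.21 and 0.614 in the tumors (log2 fold change 1.35, SE 0.37, adjusted p = 0.0687). Gbp5 was at 0.0343 and 0.0486 against 0.380 and 0.143 (log2 fold change 2.63, SE 0.72, adjusted p = 0.0665). In both genes skin tumor 1 was well above skin tumor 2, and without skin tumor 2 the count was 3. The stress genes stood at 27.3 and 16.8 per 10,000 in the controls and 62.7 and 58.1 in the tumors, the regulatory T cell markers at 11.1 and 9.60 against 22.6 and 19.8, and the T lineage genes at 9.09 and 9.35 against 16.7 and 17.2. The part of these levels was not tested.

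Regulatory T cells, the Foxp3 lineage that restrains other T cells, had the highest control level of the 8 genes together, 3.63 and 3.27 UMIs per 10,000, and 4.52 and 5.01 in the tumors. Gbp7 took the largest part of it, at 1.15 and 1.10 in the controls and 1.42 and 1.19 in the tumors (log2 fold change 0.19, SE 0.24, adjusted p = 0.756). Gbp4 (0.783 and 0.612 against 0.666 and 0.7995) and Gbp5 (0.366 and 0.275 against 0.270 and 0.501) overlapped between tissues. The lowest adjusted p was 0.178, for Gbp9, at 0.0783 and 0.183 against 0.378 and 0.352. None of the 8 was called by edgeR or DESeq2 and 1 had an unadjusted p under 0.05, where edgeR called 1.42% of 6681 genes higher. Both tumors were above both controls for 6 of 8 genes, against 27.7% of all genes. Gbp6 and Gbp9 met the filter's level in control skin 2 only, so neither passed it without a tumor library. Their place in these counts is no support. The control libraries held 37 and 35 of these cells. The cycling genes stood at 0.992 and 0.489 per 10,000 in the controls and 5.66 and 4.13 in the tumors. The regulatory T cell markers stood at 79.9 and 77.6 against 69.0 and 60.9. The part of these levels in the result was not tested.

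NK cells also had high control levels, 1.75 and 2.67 for the 8 genes together against 3.90 and 3.39 in the tumors. Gbp4 was at 0.426 and 1.12 in the controls and 0.816 and 0.569 in the tumors, the tumors lying between the controls (log2 fold change -0.12, SE 0.44, adjusted p = 0.95). Gbp9 was at 0.142 and 0.0936 against 0.433 and 0.427 (log2 fold change 1.86, SE 0.56, adjusted p = 0.123). Of 5 genes tested none was called by edgeR or DESeq2, 2 had an unadjusted p under 0.05 and 4 had both tumors above both controls. Among all 4701 genes 1.55% were called higher and 23.9% had both tumors above both controls. Gbp3 and Gbp9 were below the filter's level in both controls and passed it through their tumor libraries. Gbp8 met it in control skin 1 only, so it did not pass without a tumor library. The place of all these genes in the counts is no support. Gbp4 turned to a log2 fold change of 0.70 without control skin 2 and 0.13 without skin tumor 2, and without control skin 2 the number called was 1. The control libraries held 23 and 18 NK cells.

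Neutrophils carried the highest level of a single Gbp gene among the fitted types of the tumors. Gbp2 was at 0 and 0.439 in the control skins and 4.42 and 1.92 in the tumors (log2 fold change 3.36, SE 0.75, adjusted p = 0.767). Gbp7 was at 0.105 and 0.236 against 0.593 and 0.508 (log2 fold change 1.46, SE 0.59, adjusted p = 0.919). Both genes had both tumors above both controls, as did 20.1% of the 3595 genes tested, and both had an unadjusted p under 0.05. Gbp7 was below the filter's level in both controls and Gbp2 in control skin 1, so neither passed it without a tumor library. Their place in these counts is therefore no support. Neither tool called Gbp2 or Gbp7, and edgeR called 0.0% of all genes higher in neutrophils. Neutrophils had medians of 3038 to 4366 UMIs per cell. The control libraries held 18 and 61 neutrophils with 4 and 39 UMIs of the 8 genes, and the number called was 1 without control skin 1, without control skin 2 or without skin tumor 2. In mast cells, with 4 to 24 UMIs of the 8 genes per library, no member had enough counts to test, and their summed level was 0.677 and 1.06 in the controls and 1.74 and 1.30 in the tumors.

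Langerhans cells and dendritic epidermal T cells, the antigen-presenting and the gamma delta T cells resident in mouse epidermis, could be read in control skin. Langerhans cells held the 8 genes at 0.340 and 0.339 UMIs per 10,000 in 337 and 283 cells. Gbp8 made up 56.94% and 60.64% of that, at 0.194 and 0.206, while Gbp5 had 0.0016 and 0. Dendritic epidermal T cells held the 8 genes at 0.744 and 0.797 in 558 and 649 cells, with Gbp4 at 0.302 and 0.323 and Gbp8 at 0.273 and 0.285. The control libraries gave nearly the same values as each other in both types. The tumors held 1 and 4 Langerhans cells and 2 and 22 dendritic epidermal T cells, too few for a comparison. Mature dendritic cells, with 4 and 3 control cells and 37 and 10 tumor cells, had summed levels of 0.893 and 0.326 against 5.39 and 3.51, on 6 and 2 control UMIs. Dermal gamma delta T cells were at 1.013 and 0.629 in 117 and 91 control cells, and type 2 innate lymphoid cells at 1.43 and 0.576 in 53 and 45 control cells.

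**Figure D3:**
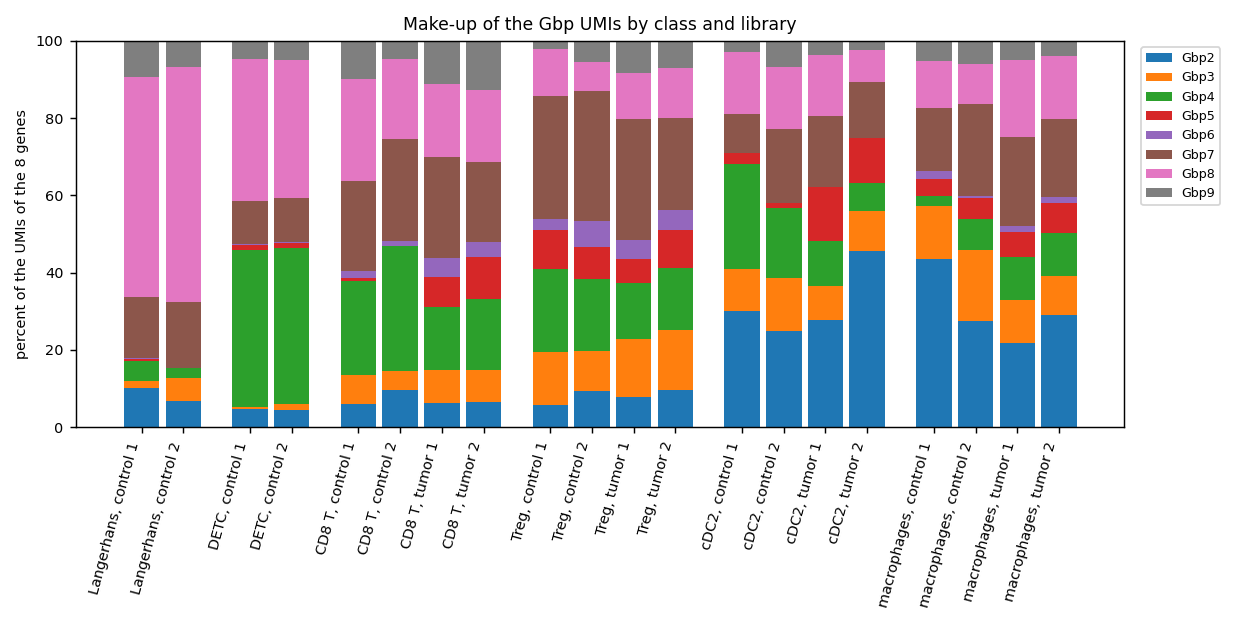
Share of each of the 8 genes in all their UMIs (vertical axis, percent) for control libraries of Langerhans cells and dendritic epidermal T cells and for all 4 libraries of CD8 T cells, regulatory T cells, cDC2 and C1q-high macrophages. Gbp8 fills 56.94% and 60.64% of the Langerhans cell bars, and Gbp5 goes from 0.91% and 0% to 7.52% and 10.9% in CD8 T cells.

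The makeup of the family differed by cell type. A UMI stands for 1 molecule tagged near its 3′ end, so these shares carry no length correction, and they still depend on how well each 3′ end is captured. In macrophages Gbp2 took 43.51% and 27.4% of the Gbp UMIs in control skin and 21.69% and 29.07% in tumors, while Gbp4 went from 2.6% and 8.19% to 11.14% and 11.22%. In tumor neutrophils Gbp2 alone took 59.89% and 66.02%. In regulatory T cells Gbp7 took 31.65% and 33.64% in the controls and 31.47% and 23.78% in the tumors, and Gbp2 stayed under 10% in each library. In CD8 T cells Gbp4 went from 24.09% and 32.53% to 16.46% and 18.48%. Gbp5 took 3% and 1.14% in control cDC2 and 13.96% and 11.76% in tumor cDC2.

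By summed level the 10 fitted types were ordered in control skin as regulatory T cells (3.45), NK cells (2.21), macrophages (1.52), CD8 T cells (1.46), CD4 T cells (1.404), neutrophils (0.869), mast cells (0.868), cDC2 (0.752), monocyte-like cells (0.673) and cDC1 (0.179). In skin tumor the order was macrophages (5.79), neutrophils (5.15), monocyte-like cells (5.13), regulatory T cells (4.77), CD8 T cells (3.70), NK cells (3.65), CD4 T cells (3.37), cDC2 (3.07), cDC1 (2.77) and mast cells (1.52). The ranges of the 2 libraries overlapped for 6 of the 9 neighbouring pairs in control skin and 7 of 9 in skin tumor. Myeloid types thus stood below the regulatory T cells in control skin and macrophages above them in the tumors, as a description of these libraries. Single genes had other orders. Gbp4 was highest in NK cells (0.775) and regulatory T cells (0.697) in control skin and lowest in cDC1, with 0 UMIs. Gbp9 in the tumors was highest in CD8 T cells (0.450) and NK cells (0.430). Gbp6 was highest in regulatory T cells in both tissues (0.159 and 0.241) and had 0 UMIs in neutrophils and mast cells.

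Whether the tumor effect itself differed from that in macrophages was tested in 1 fit over all 40 sums, with library as a block. None of 72 pairs of a gene and a type was called by this edgeR test, with 21 at an unadjusted p under 0.05, where 0.627% of all 91656 gene and type pairs were called. No other tool was run for it. On simulated data this fit recovered 55.5% of 200 genes given an added log2 change of 2 in CD8 T cells. Those genes were drawn from the ones above a minimum level in CD8 T cells. Differences of that size can thus be missed, and the absence of a call does not show equal effects. The lowest adjusted p was 0.0503, for Gbp4 in CD4 T cells, where the log2 fold change was lower than in macrophages by 2.47 (-2.47, SE 0.66). Gbp7 in regulatory T cells followed (-1.63, SE 0.37, adjusted p = 0.0568), then Gbp8 in CD8 T cells (-1.60, SE 0.45, adjusted p = 0.0641), Gbp4 in CD8 T cells (-2.23, SE 0.64, adjusted p = 0.0653) and Gbp4 in regulatory T cells (-2.59, SE 0.66, adjusted p = 0.084). Next came Gbp2 (adjusted p = 0.105) and Gbp7 (adjusted p = 0.11) in cDC1, with larger estimates that rest on 0 control UMIs. The estimate was smaller than in macrophages in 8 of 9 types for Gbp8, 7 for Gbp4 and Gbp7 and 6 for Gbp6. It was larger in 8 of 9 for Gbp3, 6 for Gbp2 and Gbp5 and 5 for Gbp9. All these estimates share the macrophage libraries. The tallies include mast cells, where Gbp6, Gbp8 and Gbp9 had 0 UMIs in every library and Gbp4 had 1 UMI in each tissue. Gbp6 had 0 UMIs in neutrophils too. No effect of these genes was measured there, and the share of all genes with a smaller estimate was not computed. The count of pairs called was 4 without skin tumor 2, 1 without skin tumor 1, 5 with stricter gates and 3 without doublet removal, so it depended on these choices.

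In all filtered cells of a library together, without regard to type, all 8 genes were called higher, as were 9.72% of 16381 genes, and all 8 had both tumors above both controls, where 45.2% of genes did. Gbp2 was at 0.109 and 0.116 in the controls and 1.21 and 1.33 in the tumors. The log2 fold changes ran from 1.22 (Gbp4, adjusted p = 0.028) to 3.86 (Gbp5, adjusted p = 0.00428). This sum moves with the cell types present: the share of macrophages, given above, was many times higher in the tumors, so more cells of a type and more RNA per cell cannot be told apart in it. Without control skin 1 or control skin 2 the count was 5.

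The partner genes included 8 immunity-related GTPases. In macrophages all 8 were tested, 3 were called higher and their median log2 fold change was 2.14, beside 2.04 for the 8 Gbps and 0.04 for all genes. Gm4951 was at 0.168 and 0.149 in the controls and 1.43 and 1.22 in the tumors (log2 fold change 2.87, SE 0.22, adjusted p = 0.0133). Iigp1, which acts on parasite vacuoles, was at 0.078 and 0.022 against 2.15 and 1.62 (log2 fold change 5.38, SE 0.44, adjusted p = 0.0145), and Igtp was called too (adjusted p = 0.0433). In cDC2 all 8 were called higher, with a median of 2.77. In monocyte-like cells 2 of 7 were called (median 2.49), in cDC1 1 of 3, in regulatory T cells 1 of 7 and in CD8 T cells 2 of 6 (median 0.85). Over all genes, the share called higher was 0.145% in macrophages, 4.79% in cDC2, 0.552% in monocyte-like cells and 0.97% in cDC1. It was 1.42% in regulatory T cells, 5.06% in CD8 T cells and 4.35% in CD4 T cells. Which of these GTPases passed the low-count filter only through tumor libraries was not determined, so their counts are not read against those shares. CD4 T cells differed, with 0 of 6 higher, 1 lower and a median of 0.14. The lower gene, named after its values were seen, was Tgtp2, at 0.446 and 0.559 in the controls and 0.220 and 0.184 in the tumors (log2 fold change -1.35, SE 0.32, adjusted p = 0.0421).

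Of the genes of the interferon gamma signal, Irf1, a factor that binds Gbp promoters, was at 0.783 and 0.731 in control and 1.54 and 1.75 in tumor macrophages, without a call (log2 fold change 0.92, SE 0.21, adjusted p = 0.149). Calls outside macrophages went both ways. In cDC2, Irf1, Irf2 and Irf8 were called higher. In CD8 T cells Irf1 and Irf8 were called higher, and the receptor chain Ifngr2 and the feedback inhibitor Socs1 lower. Irf1 in CD8 T cells was at 0.536 and 0.766 against 1.32 and 2.02 (log2 fold change 1.21, SE 0.28, adjusted p = 0.0256). In monocyte-like cells Socs1 was higher (log2 fold change 3.20, SE 0.45, adjusted p = 0.0254). Irf8 was called higher in NK cells and Ifngr2 lower in CD4 T cells. Genes of this list outside macrophages were named after their values were seen.

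The ligand, interferon gamma, was read in T and NK cells. Ifng in CD4 T cells was at 0.766 and 0.437 in the controls and 2.10 and 2.67 in the tumors (log2 fold change 1.84, SE 0.30, adjusted p = 0.0112), both tumors lying well above both controls. In CD8 T cells it was at 2.11 and 0.927 against 2.29 and 1.21, and the tissues overlapped (log2 fold change 0.07, SE 0.39, adjusted p = 0.927). NK cells had 1.75 and 1.31 against 2.78 and 4.32 (log2 fold change 1.20, SE 0.30, adjusted p = 0.0668). In the myeloid types it was at most 0.028 in any library.

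Genes on which Gbp proteins depend after they are made showed few calls. Of the 10 ATG conjugation genes none was called in macrophages (median -0.10), and Sqstm1 was called lower in cDC2 and CD8 T cells. Of the 6 prenylation genes, which attach lipid tails, no tested gene was called in any type (macrophage median 0.05). Of the 5 phagocyte oxidase genes none was called in macrophages (median -0.04). Among 8 inflammasome partners none was called in macrophages (median 0.23), where Il1b had a log2 fold change of 1.61 (adjusted p = 0.0663). Il1b was called in monocyte-like cells, at 2.52 and 4.51 in the controls and 19.9 and 32.2 in the tumors (log2 fold change 2.79, SE 0.36, adjusted p = 0.0185), and in cDC2 Pycard was higher and Casp4 lower. The 6 reference genes had no call in any type and a macrophage median of 0.09. Their median was 0.36 in cDC1 and 0.35 in cDC2, and in each of these types all 5 tested had both tumors above both controls. It was 0.52 in regulatory T cells, where 4 of 5 tested did and the Gbp median was 0.62. The 7 dissociation stress genes had none in macrophages (median -0.17), while Hspa1a and Hspa1b were called higher in monocyte-like cells, cDC2, regulatory, CD8 and CD4 T cells and NK cells, and Hspa1a in mast cells. Jun was called higher in cDC2, CD8 and CD4 T cells and NK cells. Fos and Atf3 were called lower in cDC1, Junb and Egr1 in CD8 T cells and Junb in NK cells. Their part in the Gbp results of those types was not tested.

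**Figure D4:**
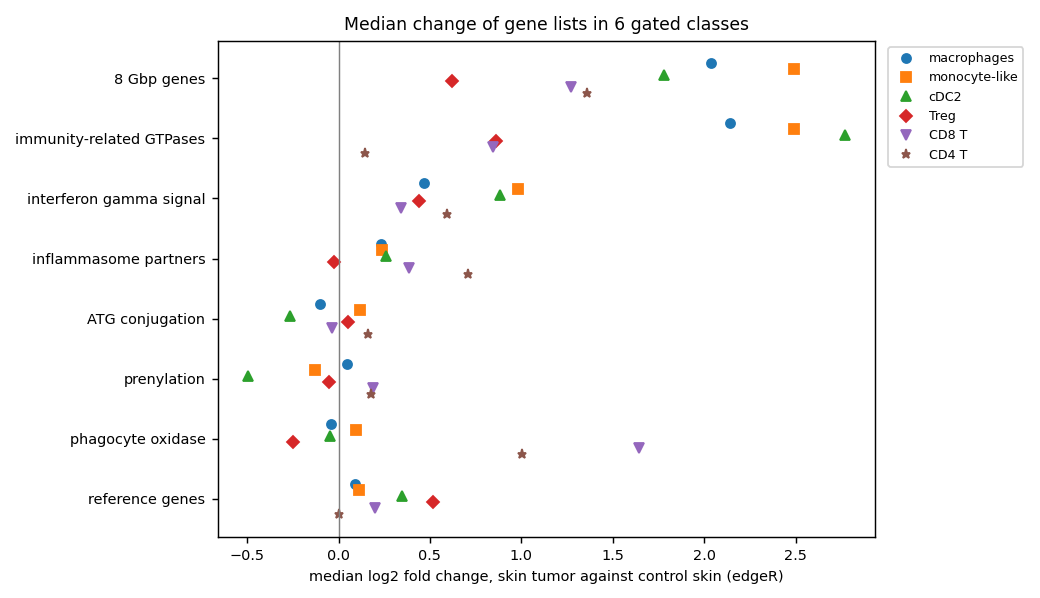
Median log2 fold change of skin tumor over control skin (horizontal axis) of the tested genes of each list in 6 cell types, with the 8 Gbp genes beside their partner lists. In macrophages the Gbps (2.04) and immunity-related GTPases (2.14) stand apart from the ATG (-0.10), prenylation (0.05) and oxidase (-0.04) lists.

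Among the genes whose level followed the summed level of the 8 Gbps most closely over the 40 sums of the fitted types, out of 8013 genes outside the family, were Ifi47 (Pearson r = 0.823), Irf1 (0.787), Gpr160 (0.766), Herc6 (0.738), P4ha1 (0.726), Irgm2 (0.709), Marf1 (0.700), Slfn8 (0.700) and Rnf214 (0.690). Ifi47 was at 0.201 and 0.287 in control and 0.692 and 0.487 in tumor macrophages. Gpr160, a receptor with no place in the fixed lists, was at 0.137 and 0.160 in control and 0.955 and 0.627 in tumor CD8 T cells. Within the family the closest pair was Gbp3 and Gbp5 (r = 0.851), followed by Gbp4 and Gbp8 (0.837), which lie in the same cluster and overlap. The least alike were Gbp2 and Gbp6 (0.101). The 40 sums come from 4 libraries and share their depth, so these values are descriptions.

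Per cell, the difference in macrophages was also seen in the share of cells with at least 1 UMI. Gbp7 had a UMI in 23.9% and 28.2% of control and 68.9% and 63.7% of tumor macrophages. With each cell thinned to 1000 UMIs, which left out 0 cells, the shares were 4.35% (95% exact interval 0.53 to 14.8) and 3.36% (1.10 to 7.66) against 11.9% (10.3 to 13.6) and 9.34% (7.05 to 12.1). Gbp8 was found in 0 of 46 and 0.671% of thinned control macrophages, where 0 of 46 allows up to 7.71%, and in 10.2% and 8.26% of thinned tumor macrophages. Gbp2 was found in 4.35% and 4.70% against 10.4% and 10.95%. As a low reference, Gbp2 was found in 0.297% and 0.353% of thinned control Langerhans cells. The intervals cover counting error only.

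Other family members in the files were Gbp2b and Gbp10. Gbp2b, the mouse gene closest to human GBP1, had 4 and 23 UMIs in control macrophages and 3476 and 416 in tumor macrophages, or 0.0447 and 0.0858 against 1.05 and 0.342 per 10,000. Skin tumor 1 was well above skin tumor 2, and the log2 fold change of 3.02 (SE 0.61) had an adjusted p of 0.126. Outside macrophages, the fitted types held at most 22 UMIs of Gbp2b in a library. Gbp10 had 0, 0, 5 and 2 UMIs in macrophages, and all the words at its 3′ end are shared with other genes, so that its molecules may not be counted as its own.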

How the data were processed

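The 8 genes and the partner lists were chosen with earlier results of these data known. The authors ran Cell Ranger on the mouse genome mm10 (version 7.1.0 in the submitters' processing notes, 7.0.1 in the matrix headers) and deposited UMI counts per gene and cell of each library, neither normalized nor filtered beyond cell calling. How intronic reads were counted is not given in the sources used here. Cell filters were those of the study (a minimum of 100 genes and of 1000 UMIs, a mitochondrial share up to 15%, and a ratio of the log10 gene number to the log10 UMI number no lower than 0.8), and the top 1% per 1000 cells by a score against simulated doublets (2 per cell, 30 components) was removed, 453 cells in all. The kept libraries had medians of 10264 to 13135 UMIs per cell.

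Cells were gated by minimum and maximum counts of marker genes. The gates named as immune left out cells with over 4 collagen or Dcn UMIs or over 9 keratin UMIs, a step chosen after seeing the data, and 35 cells that met several gates were left out. Counts were summed per library and type and tested with edgeR 4.0.16 (TMM, filterByExpr, glmQLFit and glmQLFTest) with tissue as the only term, and differences between types in 1 joint fit with library as a block. Each SE was derived from the test, as the absolute log2 fold change divided by the square root of the F statistic. Scaling by library totals in place of TMM moved the median log2 fold change of all genes by 0.205 to 0.241 in macrophages, cDC1 and cDC2, by 0.15 in CD8 T cells, by 0.178 in all cells and by -0.285 in mast cells, and changes are given relative to the TMM scale, where these medians lay between -0.003 and 0.068. An exact permutation test of 2 against 2 libraries cannot go below p = 0.333 and was not used. The text names the 8 genes in every type, other family members and the list genes with the lowest p in macrophages. It also names genes from the 10 outside the family with the highest Pearson correlation of log2(UMIs per 10,000 + 0.1) with the summed level. Those 10 were taken among genes with a mean of at least 0.1, and not all of them are reported here. Tested on simulated data with 200 genes changed by 2 on the log2 scale, the class fits recovered between 55.5% (mast cells, 2345 genes) and 81% (NK cells, 4701 genes, and monocyte-like cells, 7785 genes), with 60.5% in macrophages (11699 genes) and 80.5% in CD8 T cells (8022 genes). The unchanged genes called in these runs numbered from 6 in macrophages to 26 each in monocyte-like cells and CD8 T cells.

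Alternatives were DESeq2 1.42.0, library totals, no filter on low counts, replicate number as a block, leaving out each library, stricter gates, no doublet removal, no cell filters, thinned cells, means over cells, and keeping collagen and keratin cells in the gates, of which the last was chosen after seeing the data. Of the gene identifiers, 30934 of 31053 were in the GENCODE M21 annotation of GRCm38, from which positions were taken. Promoter sequences are from RefSeq. A few genes and an allele are not reported here, so calls on the lists of interferon gamma signal and phagocyte oxidase genes are given in part.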

Additional observations from a re-analysis of the deposited data

Results flagged for a closer look

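The cells that met no gate, which the comparisons leave out, held 0.975 and 0.85 UMIs of the 8 genes per 10,000 in the control skins and 5.61 and 3.95 in the skin tumors, a tumor mean of 4.777. This is above the level in the control cells that met no gate. The 1368, 1314, 1494 and 691 cells are of mixed type, and the types among them may differ between control skin and tumor.

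Cells with collagen RNA and little Ptprc, which passed the CD45 sort but are described by no comparison, carried Gbp2 at 0.982 and 1.998 per 10,000 in the tumors (mean 1.49). The tumor libraries held 44 and 93 such cells, with Ptprc at 0.048 and 0.036 and the fibroblast genes at 12.6 and 18.96 per 10,000. The control skins held 0 and 1 such cells, so no control level can be given. Gbp2 made up 38.34% and 48.65% of the Gbp UMIs there, and Gbp7 26.54% and 21.46%.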

How the results depend on the processing

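Of the 18 pairs called within cell types, Gbp2, Gbp5 and Gbp7 in cDC2 were called under every alternative run for them (12 each), and the other 15 lost the call under at least 1. Across all alternatives and all tested pairs, 637 values kept direction and side of the threshold, 50 crossed to a call, 56 lost one and 12 turned sign. With DESeq2, macrophages had 6 calls and CD8 T cells 1. Without a filter on low counts there were 8 calls in macrophages, 7 in monocyte-like cells, 5 in cDC1, 1 in neutrophils, 4 in CD4 T cells and 35 in all. Stricter gates left 1 call in macrophages and 11 in all and gave 5 differences between types, and without doublet removal there were 3. Thinning to 1000 UMIs left 0 calls in macrophages, 1 in monocyte-like cells and 1 in all, of 8 pairs that still could be tested, since fewer UMIs remain. Leaving out each library in turn gave 0 to 8 calls in macrophages, 0 to 7 in monocyte-like cells, 0 to 2 in cDC1, 0 to 1 in neutrophils, 0 to 5 in CD8 T cells, 0 to 3 in CD4 T cells, 0 to 1 in NK cells, 5 to 8 in all cells together, 5 to 30 over all types, and 0 to 4 differences between types. The lone library left was then assumed to vary like the others.

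The replicate numbers of the labels were tried as a block. Deviations of samples of the same number from their tissue means had correlations from -0.087 to 0.063 over the types and all cells together. Counting noise also gives values near 0, so this check cannot decide whether such samples share more than a number. With the block CD8 T cells had 1 call and CD4 T cells 2, against 4 and 0 without it.

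The sign turned for 4 pairs, none of them called. Gbp4 in regulatory T cells (0.023 as reported) ranged from -0.166 to 0.208 when each library was left out, with the sign turned without control skin 2 or skin tumor 2 (-0.082), and was -0.221 with stricter gates and -0.007 without cell filters. Gbp5 there ranged from -0.262 to 0.613, turned without skin tumor 2 or control skin 2 (-0.014), and was -0.515 with stricter gates. Gbp4 in CD4 T cells ranged from -0.091 to 0.70, turned without skin tumor 1 or control skin 2 (-0.074), and was -0.096 with stricter gates. Gbp4 in NK cells ranged from -0.66 to 0.704, turned without control skin 2 or skin tumor 2 (0.125). The summed level moved with stricter gates to 0.734 in control monocyte-like cells, 1.614 in tumor cDC1 and 1.492 in control CD8 T cells. As a mean over cells it was 1.117 in tumor mast cells, 4.363 and 5.183 in control and tumor regulatory T cells and 1.380 in control CD8 T cells. The cause of these shifts was not tested. Stricter gates left no cDC1 member to test, and the joint fit was not run with the replicate block beside the library block. At this depth no member could be tested in mast cells and 2 in neutrophils.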
